A study of Mus musculus with 4 samples.

Results

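The MHC class II pathway was followed through 10 genes, chosen by name: H2-Aa, H2-Ab1 and H2-Eb1 (chains of the peptide-presenting molecules), Cd74 (the invariant chain), H2-DMa, H2-DMb1 and H2-DMb2 (chains of the peptide editor H2-M), H2-Oa and H2-Ob (chains of H2-O, which restrains H2-M) and Ciita (the class II transactivator). All 10 were found among the 51826 gene identifiers of the count table, and all 10 passed the filter on low counts, which left 21607 genes. RNA came from 4 mouse C3-T+ mammary tumours, 2 that had lost one Elf5 copy (Elf5+/-, HET) and 2 that were wild type (Elf5+/+, WT); Elf5 encodes an ETS transcription factor of luminal progenitor and alveolar cells. Both HET titles carry the same leading number and may name tumours of a single animal, while the WT titles carry different numbers. Strain, age and the promoter behind the C3-T transgene are not given in the labels. Tumours were digested with enzymes and the cells were sorted with antibodies to CD45, CD31 and TER119, so a tumour cell fraction was enriched before RNA extraction.

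Class II molecules carry peptides from endosomes to the cell surface, where CD4 T cells read them. The invariant chain, Cd74, fills the groove of new molecules until it is cleaved, H2-M then exchanges its last fragment for other peptides, and H2-O holds H2-M back, chiefly in B cells and some dendritic cells. Dendritic cells, macrophages and B cells make these genes constantly or when activated, and many epithelial cells, tumour cells included, do so after interferon gamma has induced Ciita. CIITA does not bind DNA itself but docks on RFX, NF-Y and CREB proteins at a conserved pair of promoter elements, the X box and the Y box.

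The genes of the chains, 8 in all, lie together on chromosome 17, between 34092340 and 34316674 (GRCm38, a span of 224 kb). RefSeq promoter windows (build GRCm38.p6, 250 bases before to 50 after a gene's start) were found for 7 of the 10 genes, in 8 windows, since H2-DMa has a pair. H2-Ab1, Cd74 and Ciita had none in the table used. The Y box was searched as CCAAT, which reads ATTGG on the opposite strand. The X box was searched by its core, ACNGATG. Both strands were searched, and no letters are shared by matches to the X box and to the Y box in the stretches shown. The following stretches run from 150 to 31 bases before the start and were taken from those free of annotated exons. They set antigen-presenting chains (H2-Eb1, H2-Aa) beside an H2-M and an H2-O chain. Some have and some lack the X box core before the Y box letters. Capitals mark matches to either motif.
H2-Eb1, chr17:34305717-34305836, plus strand: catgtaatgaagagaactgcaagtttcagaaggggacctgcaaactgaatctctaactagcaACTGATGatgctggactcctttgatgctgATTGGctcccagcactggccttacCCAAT
H2-DMb2, chr17:34145099-34145218, plus strand: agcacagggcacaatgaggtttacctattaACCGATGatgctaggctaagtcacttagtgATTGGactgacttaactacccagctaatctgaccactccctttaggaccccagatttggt
H2-Ob, chr17:34238755-34238874, plus strand: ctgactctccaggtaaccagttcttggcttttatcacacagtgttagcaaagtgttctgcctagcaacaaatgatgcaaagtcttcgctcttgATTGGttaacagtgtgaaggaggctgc
H2-Aa, chr17:34287854-34287973, minus strand: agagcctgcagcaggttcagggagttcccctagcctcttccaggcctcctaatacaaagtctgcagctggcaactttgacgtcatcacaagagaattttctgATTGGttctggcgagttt

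In H2-Eb1, H2-DMb1 and H2-DMb2 the X box core was followed by ATTGG on the same strand after 22, 23 and 23 bases. This arrangement, with a gap of 10 to 30 bases allowed, was present in 3 of the 8 class II windows and in 52 of all 32851 promoter windows, or 0.158%. The CCAAT box alone was present in 7 of 8 class II windows, against 37.4% of all windows, and the X box core in 5 of 8, against 9.85%. In H2-Aa and H2-Oa the X box core stood outside the paired arrangement. It lay at bases -232 to -226 on the opposite strand in H2-Aa, and at bases -137 to -131 in H2-Oa. Only exact letters were searched, so a variant X box would be missed. Around the paired motifs, 70 of 80 bases (87.5%) were identical between H2-DMb1 and H2-DMb2, the neighbouring genes for the beta chain of H2-M. These are letter matches, not measured binding.

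**Figure D1:**
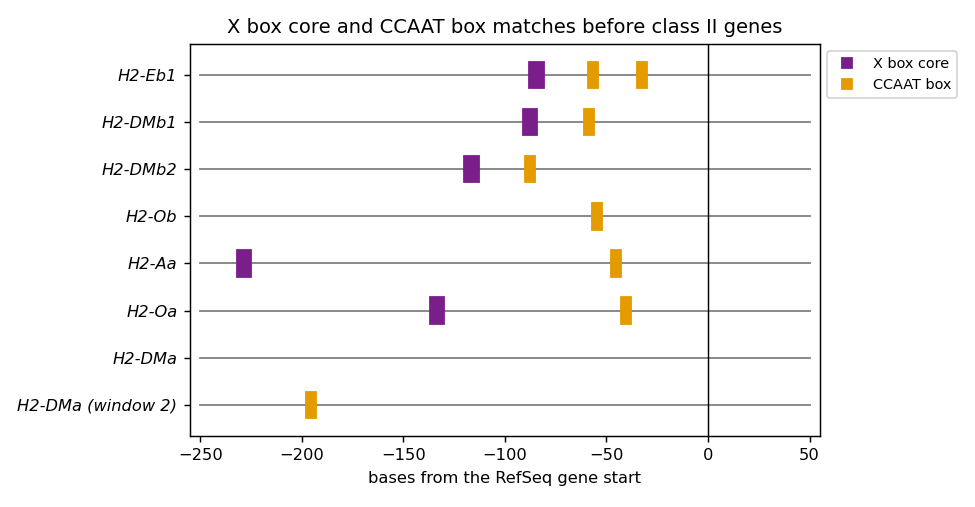
Matches to the X box core and the CCAAT box, on either strand, in RefSeq promoter windows of class II genes; the x axis gives bases from the gene start and each line is 1 window of 300 bases. The X box core stands 22 or 23 bases before a CCAAT box in H2-Eb1, H2-DMb1 and H2-DMb2, and the first H2-DMa window holds neither motif.

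Library totals lay between 12695132 and 15307939 counts. Of all genes in the count table, 29.9% and 31.3% had 0 counts in HET 1 and HET 2, and 30% in WT 1. The share was 44.5% in the library labelled WT 2, although its total was the largest. Elf5 stood at 5.39 and 10.6 CPM in HET 1 and HET 2, and at 35.6 CPM in WT 1 and 4.70 CPM in the library labelled WT 2 (CPM, library-scaled counts on the TMM-normalised per-million scale, are used throughout). Elf5 in the library labelled WT 2 thus lay below both HET libraries, against its label, and that library also stood apart from the other 3 on the first principal component. Each direction given for HET over WT below rests on that label. With 2 libraries a genotype, the smallest two-sided p that exact permutation can give is 0.333.

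Class II transcripts were abundant in both HET tumours and in WT 1, and were scarce in the library labelled WT 2. The summed level of the 10 genes was 624 and 452 CPM in HET 1 and HET 2, and 428 CPM in WT 1 and 16.2 CPM in the library labelled WT 2. HET 2 and WT 1 differed little, while the WT libraries lay far apart and both below HET 2. On the log2 scale HET exceeded WT by 2.67, with an SD of 0.33 in HET and 3.34 in WT (n = 2 each; exact two-sided permutation p = 0.333, the smallest possible). Without the library labelled WT 2 the difference was 0.31, and without WT 1 it was 5.03. These are differences between means of log2 values, on which a low library weighs heavily. The mean levels themselves were 538 CPM in HET and 222 CPM in WT. The edgeR fold changes of single genes given below are another measure. In bulk RNA, fewer cells that make class II and less class II RNA per cell cannot be told apart.

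**Figure D2:**
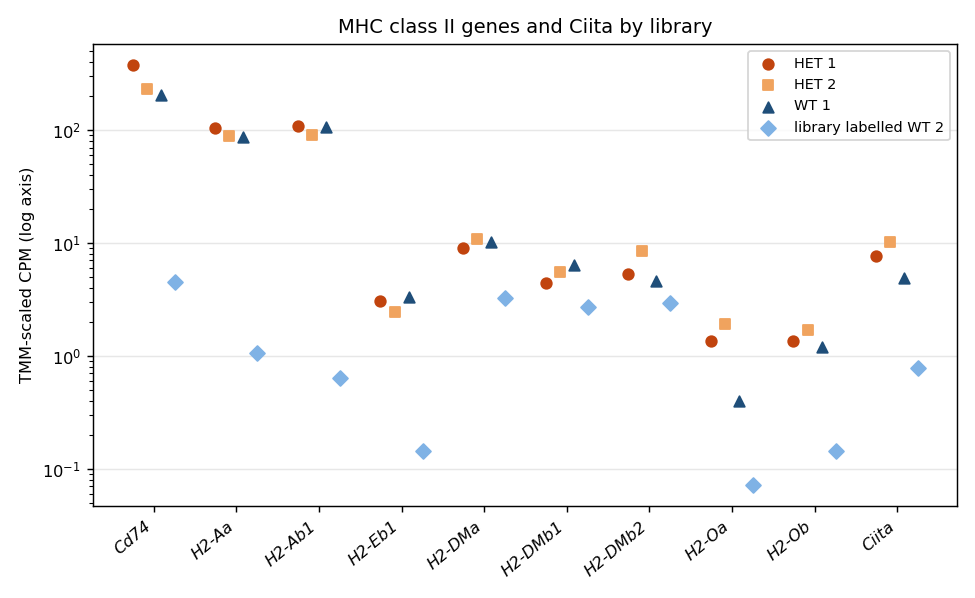
TMM-scaled CPM (log axis) of each class II gene in each library; each point is 1 library. The library labelled WT 2 is the lowest point for all 10 genes, at 4.49 CPM for Cd74 and 0.641 CPM for H2-Ab1, while the other 3 libraries lie close together for most genes.

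The antigen-presenting chains and their chaperone carried most of the signal. Cd74 (chromosome 18, 60803848 to 60812652, plus strand) stood at 378 and 233 CPM in HET 1 and HET 2, and at 204 CPM in WT 1 and 4.49 CPM in the library labelled WT 2. Both HET libraries lay above both WT libraries, although HET 2 exceeded WT 1 only slightly. The log2 fold change was 1.55 ± 1.36 (SE), which missed the threshold (adjusted p = 0.986, quasi-likelihood F test of edgeR).

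H2-Aa, the alpha chain of the I-A molecule, stood at 105 and 88.3 CPM in HET 1 and HET 2, and at 87.4 CPM in WT 1 and 1.07 CPM in the library labelled WT 2. H2-Ab1, its beta chain, stood at 109 and 90.0 CPM in HET 1 and HET 2, and at 106 CPM in WT 1 and 0.641 CPM in the library labelled WT 2. The chains of this pair were thus at like levels in 3 libraries, and H2-Ab1 overlapped between genotypes. The log2 fold changes were 1.13 ± 1.44 for H2-Aa and 0.91 ± 1.56 for H2-Ab1 (SE, n = 2 each), both with an adjusted p of 0.986 in edgeR. Counts of H2-Aa per count of H2-Ab1 were 0.957 and 0.981 in HET 1 and HET 2, and 0.828 in WT 1. In the library labelled WT 2 the pair had 15 and 9 counts.

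H2-Eb1, the beta chain of the I-E molecule, was far less abundant, at 3.05 and 2.45 CPM in HET 1 and HET 2, and at 3.34 CPM in WT 1 and 0.142 CPM (2 counts) in the library labelled WT 2. Its level per kilobase of exon was 1.57 and 1.26 CPM in HET 1 and HET 2 and 1.72 CPM in WT 1, where H2-Ab1 stood at 42.6, 35.1 and 41.1 CPM per kilobase in the same libraries. Of the neighbouring rows, H2-Eb2, a related beta chain gene, stood at 0.714 and 1.71 CPM in HET 1 and HET 2, and at 0.875 CPM in WT 1 and 0.142 CPM in the library labelled WT 2. H2-Ea-ps, annotated as a polymorphic pseudogene for the I-E alpha chain, had 25 and 28 counts in HET 1 and HET 2, and 22 counts in WT 1 and 0 in the library labelled WT 2. Class II genes vary in sequence between mouse strains and were quantified on the reference strain's sequence, so levels of one chain against another also carry that match.

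The H2-M genes were spread differently. H2-DMa, the alpha chain, stood at 9.09 and 10.8 CPM in HET 1 and HET 2, and at 10.3 CPM in WT 1 and 3.28 CPM in the library labelled WT 2. H2-DMb1 stood at 4.41 and 5.57 CPM in HET 1 and HET 2, and at 6.44 CPM in WT 1 and 2.71 CPM in the library labelled WT 2. H2-DMb2 stood at 5.26 and 8.46 CPM in HET 1 and HET 2, and at 4.61 CPM in WT 1 and 2.92 CPM in the library labelled WT 2. H2-DMa and H2-DMb1 overlapped between genotypes, and H2-DMb2 did not. Their log2 fold changes were 0.56 ± 0.62, 0.13 ± 0.61 and 0.86 ± 0.55 in that order (SE), with adjusted p of 0.986, 0.994 and 0.986 in edgeR. H2-DMb1 and H2-DMb2 are close paralogs, so the split of reads between them is uncertain; summed, they stood at 9.67 and 14.0 CPM in HET 1 and HET 2, and at 11.1 CPM in WT 1 and 5.63 CPM in the library labelled WT 2, with a log2 fold change of 0.51 (an alternative chosen after seeing the data; adjusted p = 0.986 in edgeR).

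The H2-O genes had low counts, and in the library labelled WT 2 both lay under the detection floor used, 3 counts a library, or 0.196 to 0.236 CPM of total counts. H2-Oa had 21 and 26 counts in HET 1 and HET 2, and 5 counts in WT 1 and 1 count in the library labelled WT 2, or 1.36 and 1.93 CPM in HET and 0.398 and 0.0712 CPM in WT. Its log2 fold change of 2.79 ± 1.10 (SE) was the largest of the 10 genes with all 4 libraries (unadjusted p = 0.0445, adjusted p = 0.986, edgeR). It was also the largest without the library labelled WT 2, at 2.02, but not without WT 1, at 4.37 against 7.26 for H2-Ab1, nor in limma-voom, at 2.98 against 3.67 for H2-Ab1. H2-Ob had 21 and 23 counts in HET 1 and HET 2, and 15 counts in WT 1 and 2 counts in the library labelled WT 2, with a log2 fold change of 1.20 ± 1.10 (SE, adjusted p = 0.986 in edgeR). Summed B cell markers were likewise higher in HET, at 13.1 and 38.3 CPM in HET 1 and HET 2, and at 6.60 CPM in WT 1 and 2.49 CPM in the library labelled WT 2. Among them Ms4a1, which encodes the B cell surface protein CD20, stood at 1.56 and 7.94 CPM in HET 1 and HET 2, and at 1.19 and 0.285 CPM in WT. The list was uneven: Cd79b had 0 and 40 counts in HET 1 and HET 2, and 6 and 0 counts in WT, and Fcrla had 3 and 22 counts in HET 1 and HET 2, and 17 and 0 counts in WT. Cd79a had 6 and 63 counts in HET 1 and HET 2, and 0 and 1 counts in WT, and Blk was at 0 counts only in the library labelled WT 2. Pax5 had 45 and 87 counts in HET 1 and HET 2, and 5 and 5 counts in WT. Cd22 had 98 and 113 counts in HET 1 and HET 2, and 28 and 21 counts in WT. The part of B cells in the H2-Oa difference was not tested.

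Ciita (chromosome 16, 10480059 to 10528418, plus strand) stood at 7.72 and 10.2 CPM in HET 1 and HET 2, and at 4.85 CPM in WT 1 and 0.783 CPM in the library labelled WT 2. Both HET libraries lay above both WT libraries, with a log2 fold change of 1.67 ± 0.85 (SE, unadjusted p = 0.0968, adjusted p = 0.986 in edgeR), or 0.88 without the library labelled WT 2. Ciita has several promoters, used in dendritic cells, in B cells and after interferon gamma, which counts over the whole gene do not separate. Per 1000 counts of Cd74, H2-Aa and H2-Ab1 there were 13.1 and 24.7 counts of Ciita in HET 1 and HET 2, and 12.2 in WT 1 and 126 in the library labelled WT 2, where Ciita had 11 counts and the other 3 genes had 87 together.

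Across the genes, none of the 10 differences passed. Of 21607 genes, 0 passed an adjusted p under 0.05 in edgeR's quasi-likelihood test, a background of 0%; 817 genes (3.78%) had an unadjusted p under 0.05, 1.95% of all genes being higher in HET, as was the 1 class II gene with such a p, H2-Oa. DESeq2 called 134 genes (0.62%) and limma-voom 0, and neither called a class II gene. With no filter beyond 1 count, edgeR called 324 genes (0.752%), Cd74 among them (adjusted p = 0.0373). All 10 log2 fold changes were above 0, with a median of 1.02, whereas 52.7% of all genes tested were above 0, with a median of 0.04. In 6 of the 10 genes both HET libraries lay above both WT libraries, against 19.6% of all genes. These counts share 1 low library: without the library labelled WT 2, 6 of 10 were above 0 (51.6% of all genes), with a median of 0.25, and H2-Ab1, H2-Eb1, H2-DMa and H2-DMb1 turned below 0. Without WT 1, edgeR called 657 genes (3.04%), among them H2-Aa, H2-Ab1, Cd74 and Ciita. Each of these fits sets a lone WT library against HET libraries that may come from a single animal.

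**Figure D3:**
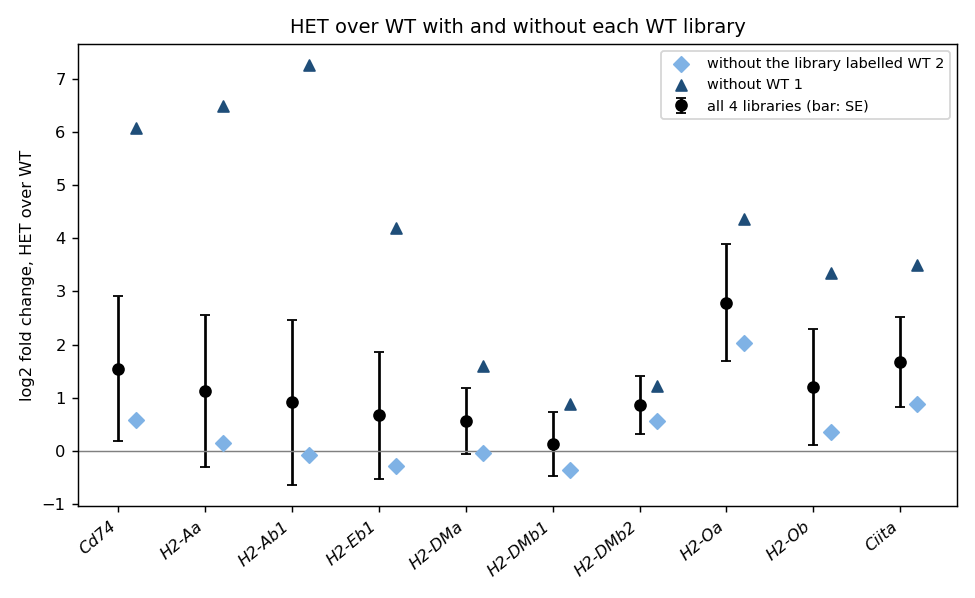
Log2 fold change of HET over WT for each class II gene from edgeR with all 4 libraries (black, bars show the SE), without the library labelled WT 2 (diamonds) and without WT 1 (triangles). With all libraries the values run from 0.13 for H2-DMb1 to 2.79 for H2-Oa; without the library labelled WT 2 they run from -0.37 to 2.02, and without WT 1 from 0.88 to 7.26.

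Within the WT genotype the genes of the pathway did not differ by one common factor. H2-Ab1 was 165-fold higher in WT 1 than in the library labelled WT 2 (95% exact binomial interval 86.6 to 361, counting error only), H2-Aa 81.8-fold (49.4 to 147) and Cd74 45.5-fold (35.5 to 59.4). Ciita was 6.19-fold higher (3.23 to 13.1), H2-DMa 3.13-fold (2.22 to 4.49), H2-DMb1 2.38-fold (1.60 to 3.60) and H2-DMb2 1.58-fold (1.04 to 2.42). The interval of each H2-M gene thus lay below those of Cd74, H2-Aa and H2-Ab1. These intervals compare those libraries, not conditions. Between HET 2 and HET 1 the 10 genes ran from a ratio of 0.616 for Cd74 (0.589 to 0.643) to 1.61 for H2-DMb2 (1.20 to 2.17).

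The makeup of the class II transcripts differed in the library labelled WT 2. Cd74, H2-Aa and H2-Ab1 held 94.8% (95% exact binomial interval 94.4 to 95.3) and 90.9% (90.2 to 91.6) of the class II counts in HET 1 and HET 2, and 92.7% (92.0 to 93.4) in WT 1 and 38.2% (31.8 to 44.8) in the library labelled WT 2. The H2-M genes gave 125 of the 228 class II counts in that library, against 268 of 5386 in WT 1. Ordered by level per kilobase of exon, Cd74 came first, then H2-Ab1, then H2-Aa in HET 1, HET 2 and WT 1, and the lowest was H2-Ob. The H2-M genes followed in each of these libraries, in an order that changed from library to library. In the library labelled WT 2, Cd74 was still first, at 2.67 CPM per kilobase, but H2-DMb2, H2-DMb1 and H2-DMa, at 1.67, 1.61 and 0.95, stood above H2-Aa and H2-Ab1, at 0.281 and 0.25.

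Leukocyte markers were low in the same library as class II. Summed pan-leukocyte markers, 10 genes with Ptprc (CD45) among them, were at 429 and 330 CPM in HET 1 and HET 2, and at 367 CPM in WT 1 and 19.4 CPM in the library labelled WT 2. Ptprc itself, the antigen of the CD45 sort, stood at 73.4 and 66.1 CPM in HET 1 and HET 2, and at 62.1 CPM in WT 1 and 2.85 CPM in the library labelled WT 2. The other immune cell lists were also lowest there.

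Summed macrophage markers (11 genes) were at 939 and 598 CPM in HET 1 and HET 2, and at 886 CPM in WT 1 and 87.0 CPM in the library labelled WT 2. Dendritic cell markers (10 genes) were at 61.4 and 60.7 CPM in HET 1 and HET 2, and at 54.2 CPM in WT 1 and 20.8 CPM in the library labelled WT 2. Within that list Cd209a and Clec10a had 0 counts in the library labelled WT 2, whereas Zbtb46, at 9.62 CPM there and 6.84 CPM in WT 1, and Batf3, at 7.26 and 4.45 CPM, were higher there than in WT 1. Xcr1 stood at 1.10 and 0.89 CPM in HET 1 and HET 2, and at 2.47 CPM in WT 1 and 1.14 CPM in the library labelled WT 2. Macrophage markers were thus higher in WT 1 than in HET 2, while the class II sum was not. T and NK cell markers (9 genes) were at 48.2 and 47.7 CPM in HET 1 and HET 2, and at 21.1 CPM in WT 1 and 5.48 CPM in the library labelled WT 2. Nkg7 was at 0 counts in HET 2 as well as in the library labelled WT 2, and Cd3d was level between the WT libraries, at 2.70 and 2.56 CPM. Endothelial markers (5 genes) were at 263 and 481 CPM in HET 1 and HET 2, and at 337 CPM in WT 1 and 61.8 CPM in the library labelled WT 2. Most of that last sum was Pecam1, at 221 CPM in WT 1 and 55.6 CPM in the library labelled WT 2. Cdh5 stood at 64.4 and 2.78 CPM in the same libraries. Fibroblast markers (6 genes) ran the other way, at 2916 and 3462 CPM in HET 1 and HET 2, and at 4692 CPM in WT 1 and 15090 CPM in the library labelled WT 2. Epithelial markers (8 genes) were at 2412 and 2263 CPM in HET 1 and HET 2, and at 3630 and 3197 CPM in WT. All 8, Epcam and Krt8 included, were detected in each library. The list was uneven between the WT libraries. Krt8 stood at 788 CPM in WT 1 and 330 CPM in the library labelled WT 2, and Cdh1 at 314 and 645 CPM.

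**Figure D4:**
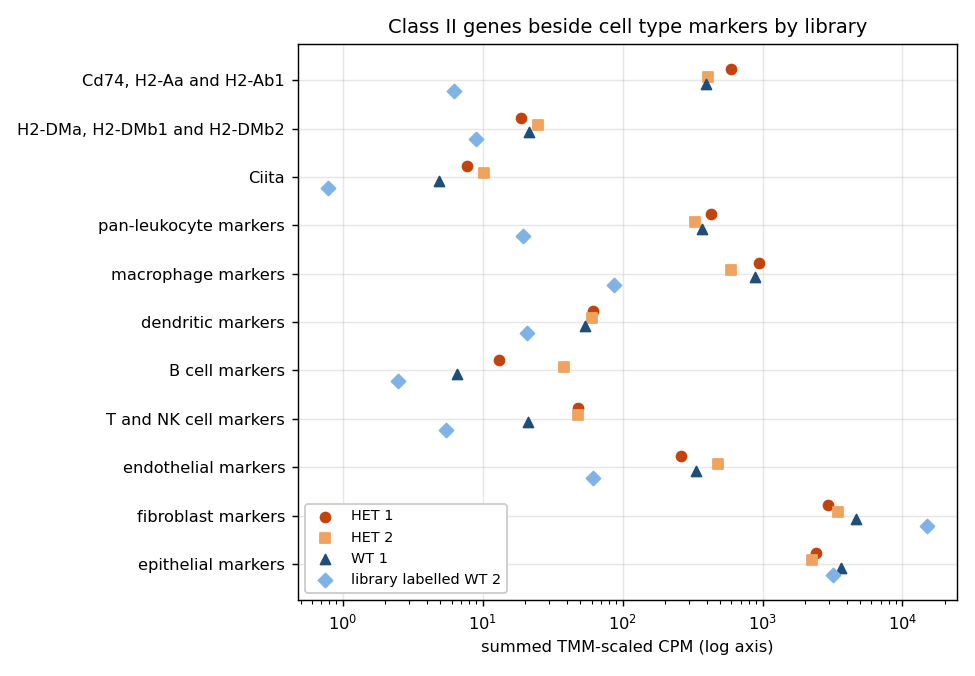
Summed TMM-scaled CPM (log axis) of class II gene groups and of cell type marker lists; each point is 1 library. From WT 1 to the library labelled WT 2 the sums differ 64.1-fold for Cd74, H2-Aa and H2-Ab1, 18.9-fold for pan-leukocyte markers, 10.2-fold for macrophage markers and 2.39-fold for the H2-M genes.

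Set against leukocyte markers, class II differed less than its summed level did, by an amount that depended on the markers chosen. Class II counts per pan-leukocyte marker count were 1.46 and 1.37 in HET 1 and HET 2, and 1.17 in WT 1 and 0.838 in the library labelled WT 2. HET exceeded WT by 0.51 on the log2 scale, with an SD of 0.06 in HET and 0.34 in WT (n = 2 each; exact two-sided permutation p = 0.333, the smallest possible). Without the library labelled WT 2 the difference was 0.27. Per macrophage marker count it was 1.24, and per count of pan-leukocyte, macrophage, dendritic and B cell markers together 1.11, with all 4 libraries. Per count of Ptprc alone the values overlapped, at 8.50 and 6.84 in HET 1 and HET 2, and at 6.90 and 5.70 in WT. For Cd74, H2-Aa and H2-Ab1 alone, counts per pan-leukocyte count were 1.38 and 1.24 in HET 1 and HET 2, and 1.08 in WT 1 and 0.32 in the library labelled WT 2. The H2-M genes gave 0.0438 and 0.0753 counts per pan-leukocyte count in HET 1 and HET 2, and 0.0581 in WT 1 and 0.46 in the library labelled WT 2, so relative to leukocyte markers they were highest where the antigen-presenting chains were lowest. How far other cells account for these differences was not tested.

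Likeness was the root mean square difference, in log2 CPM centred over the 4 libraries, from the mean profile of H2-Aa, H2-Ab1, H2-Eb1 and Cd74, among 9748 protein-coding genes. The 8 nearest were Il1b (interleukin 1 beta, 0.13), Selp (P-selectin, 0.19), Fcgr3 (an Fc gamma receptor, 0.20), Coro1a (an actin regulator of leukocytes, 0.21), C1qb (a complement C1q chain, 0.24), Fcer1g (the common Fc receptor gamma chain, 0.28), Pld4 (a phospholipase D family member of myeloid cells, 0.29) and Ctss (cathepsin S, 0.34). Coro1a and C1qb are themselves on the marker lists above. By the same measure Cd74, H2-Aa, H2-Ab1 and H2-Eb1 lay at 0.23, 0.28, 0.60 and 0.97 from the mean they form. H2-Ab1 and H2-Eb1 thus lay further from it than the 8 genes named. H2-Eb1, at no more than 3.34 CPM in any library, was itself under that minimum level. The prior count of 2 narrows the profile of a gene with few counts, so distances of such genes also carry their low counts. Ciita lay at 1.21, and H2-DMa, H2-DMb1 and H2-DMb2 at 1.77, 2.04 and 2.06. In each of the 8 profiles the library labelled WT 2 lay furthest from the mean, and likeness over 4 libraries says little beyond that.

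The regulators on which CIITA docks were detected in all libraries. None of the 7 genes for RFX, NF-Y and CREB1 passed, 2 had log2 fold changes above 0 and 5 below, and the median was -0.19. Without the library labelled WT 2, 3 were above 0 and 4 below. Nfya, the NF-Y subunit that contacts the CCAAT box, stood at 68.4 and 59.8 CPM in HET 1 and HET 2, and at 94.3 CPM in WT 1 and 83.6 CPM in the library labelled WT 2 (log2 fold change -0.47 ± 0.28, SE). Nfyc, Creb1 and Nfyb had log2 fold changes of -0.42, -0.22 and -0.19, which without the library labelled WT 2 were -0.21, -0.33 and 0.07. Rfx5, an RFX subunit that contacts the X box, stood at 24.7 and 15.2 CPM in HET 1 and HET 2, and at 16.9 and 17.6 CPM in WT. Summed, the 7 genes stood at 298 and 283 CPM in HET 1 and HET 2, and at 346 and 354 CPM in WT.

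Of 8 peptide handling genes 0 passed, 6 had log2 fold changes above 0 and 2 below, and the median was 0.05. Ctss, the protease that makes the last cut in the invariant chain, stood at 327 and 136 CPM in HET 1 and HET 2, and at 246 CPM in WT 1 and 4.70 CPM in the library labelled WT 2 (log2 fold change 0.88 ± 1.41, SE, or -0.09 without the library labelled WT 2). March1, a ubiquitin ligase that takes class II molecules from the cell surface, had 129 and 89 counts in HET 1 and HET 2, and 90 counts in WT 1 and 0 in the library labelled WT 2, without which its log2 fold change was 0.07. Ctsl, a cathepsin that takes the role of Ctss in thymic epithelium, was highest in that library, at 240 CPM. It stood at 122 and 97.1 CPM in HET 1 and HET 2, and at 104 CPM in WT 1 (log2 fold change -0.65). Sppl2a, an intramembrane protease that clears the remaining stub of the invariant chain, had a log2 fold change of -0.23. Both directions rested on the library labelled WT 2, without which the log2 fold change was 0.07 for Ctsl and 0.06 for Sppl2a.

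The interferon gamma input to Ciita also gave no passing gene. Ifng itself had 11 and 4 counts in HET 1 and HET 2, and 9 counts in WT 1 and 0 in the library labelled WT 2, and did not pass the filter. Of the other 7 genes, 2 had log2 fold changes above 0 and 5 below, with a median of -0.09. Without the library labelled WT 2, 4 were above 0 and 3 below. Irf1, which acts on an interferon-responsive Ciita promoter, stood at 72.4 and 84.2 CPM in HET 1 and HET 2, and at 73.7 and 68.4 CPM in WT. For Ifngr2, a receptor chain, and the kinase Jak1 the log2 fold change was -0.44 and -0.19, or -0.42 and 0.20 without the library labelled WT 2.

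MHC class I genes, which nearly all nucleated cells express, showed no such gap between the WT libraries. Their summed level was 2874 and 2560 CPM in HET 1 and HET 2, and 2264 and 2232 CPM in WT. Of 9 genes 0 passed, 8 had log2 fold changes above 0 and 1 below, and the median was 0.35, or 0.30 without the library labelled WT 2. Nlrc5, the class I counterpart of Ciita, stood at 56.1 and 32.6 CPM in HET 1 and HET 2, and at 21.7 and 21.2 CPM in WT (log2 fold change 1.05 ± 0.36, SE, adjusted p = 0.986 in edgeR). Psmb9 and Psmb8, immunoproteasome subunits, and Tapbp (tapasin) gave 0.54, 0.44 and -0.43 on the same scale, or 0.32, 0.20 and -0.59 without the library labelled WT 2.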

How the data were processed

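The values are the authors' deposited estimated counts, whole numbers per gene; the submitters' processing notes name Salmon and GRCm38.p5. Version, transcript annotation and strandedness are not given in the sources at hand, so overlapping genes and near-identical paralogs are uncertain. Of 51826 identifiers, 51633 matched GENCODE M21, which gave symbols, coordinates and exon lengths. Columns were matched to samples by title, and genotype came from the labels. Every pair of libraries differed beyond sampling noise (chi-square per degree of freedom 35.7 to 91.9), so all 4 were kept. The labels do not state which libraries came from separate animals, so p-values measure the spread between these samples. The HET titles share a leading number and the WT titles do not. The spread in HET may thus lie within a single animal, unlike that in WT. The genotype contrast, HET over WT, was fitted in edgeR 4.0.16 under R 4.3.3 with filterByExpr, TMM and the quasi-likelihood F test, adjusted by Benjamini-Hochberg over all genes tested. An SE is the log2 fold change divided by the square root of F. The fit was tested on simulated data. Levels are TMM-scaled CPM, and log2 CPM uses a prior count of 2. Alternatives were limma-voom (limma 3.58.1), DESeq2 1.42.0, other scalings and filters, and leaving out each library, with the filter of the full fit kept. Intervals cover counting error only.

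The class II genes were named in full. From each pathway list up to 4 genes of smallest p were named, marker lists are given as sums with up to 3 members, and the 8 genes of nearest profile were named. Rfx5, Ifng, Cd79a, Pax5, Cd22, Xcr1 and marker genes at 0 counts were named after their values were seen. Some genes of these lists are not reported here by name. The members and lists were chosen with earlier results of these data known.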

Additional observations from a re-analysis of the deposited data

How the results depend on the processing

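Relative log expression or upper-quartile scaling, library sizes without mitochondrial, haemoglobin, immunoglobulin and other cell type genes, and a filter of 1 CPM in 2 libraries left 0 genes passing in edgeR, as did an adjusted p under 0.1, and kept all 10 class II genes above 0, with medians from 1.02 to 1.09. With no filter beyond 1 count edgeR called 324 genes, Cd74 among them (adjusted p = 0.0373), and DESeq2 called 134; the cause was not tested. Limma-voom, which fits log2 values rather than counts, called 0 and gave a median of 2.08 for the class II genes. Leaving out each library in turn, the calls ran from 0 to 657, the median from 0.25 to 3.84 and the genes above 0 from 6 to 10. The difference in summed level ran from 0.31 to 5.03, and that per pan-leukocyte count from 0.27 to 0.75. With macrophage markers as denominator that difference was 1.24, and with pan-leukocyte, macrophage, dendritic and B cell markers together it was 1.11. The log2 fold change ran from -0.083 to 7.26 for H2-Ab1, from -0.28 to 4.19 for H2-Eb1, from -0.043 to 1.60 for H2-DMa and from -0.37 to 0.88 for H2-DMb1, each below 0 without the library labelled WT 2, and H2-DMb1 also without HET 2 (-0.09). Counts of class II genes above 0 under each alternative were alternatives chosen after seeing the data. A lone library left in a genotype is taken to vary as the other genotype's do. No paired analysis was possible because the labels give no number that pairs HET with WT libraries. In the library labelled WT 2, H2-Eb1, H2-Oa and H2-Ob have 2, 1 and 2 counts, so their folds there are little constrained at this depth.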
